A study of Mus musculus with 6 samples.

Results

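The Th1 genes Tbx21, Ifng, Eomes and Hlx were examined in the open chromatin of T helper cells that were not Th1 cells. Each gene was taken with 80 kb on either side of its body, and every peak in these 4 windows was kept. Overlapping or touching peaks of the 6 libraries were merged into regions, which gave 87 regions of the 236017 in the whole genome: 18 around Tbx21, 21 around Ifng, 21 around Eomes and 27 around Hlx. The libraries were made by ATAC-seq, where Tn5 transposase inserts adapters into accessible DNA. They came from naive CD4 T cells of C57BL6/J mouse spleen, all labelled wild type (WT). The cells were cultured with anti-CD3 and anti-CD28 and collected on day 5. Th2 cells were cultured with IL-4, human IL-2 and an antibody against interferon-gamma. Th9 cells received the same and human TGF-beta1. Th17 cells received IL-6, human TGF-beta1, IL-23, IL-1beta and antibodies against interferon-gamma, IL-4 and IL-2. All 3 subsets were thus grown with interferon-gamma blocked, and no Th1 library was analysed here, so the regions could be described outside Th1 cells but not compared with them. The cultures were populations of in vitro differentiated cells. Libraries titled WT1 and WT3 in each subset are named replicate 1 and replicate 3 here. The labels do not say whether these came from separate mice.

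T-bet, the product of Tbx21, is the T-box factor that directs Th1 differentiation and activates Ifng. IL-12, acting through STAT4, and interferon-gamma raise Tbx21 in T cells, and Eomes, a second T-box factor best known in CD8 T cells and NK cells, can also drive Ifng. Hlx is a homeobox factor that cooperates with T-bet in Th1 cells. Ifng lies in a long stretch with no other protein-coding gene, and its expression depends on conserved elements on both sides of the gene and on sites bound by CTCF, a protein that anchors chromatin loops.

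In mm10 with GENCODE M21, Tbx21 (ENSMUSG00000001444.2) was at chr11:97098071-97115331 on the minus strand, with 7 other coding genes in its window. Ifng (ENSMUSG00000055170.4) was at chr10:118441046-118445892 on the plus strand, with no other coding gene and the long noncoding RNA gene Ifngas1. Eomes (ENSMUSG00000032446.14) was at chr9:118478212-118486132 on the plus strand, with Golga4 beside it, and Hlx (ENSMUSG00000039377.7) was at chr1:184727140-184732619 on the minus strand, with Marc1 beside it. Regions are named by the distance from the start of the gene, upstream or downstream, to the middle of the stretch that the most libraries called.

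The sequences of the regions on which the results turn are given first, as read from the reference assembly. The first 3 are shared elements over no promoter: the highest-ranked one of the Tbx21 window, that of the Ifng window, and an Ifng element at which the subsets did not overlap. Each is shown as the 300 bases at the middle of the stretch that most libraries called: 11.8 kb upstream of Tbx21 (chr11:97127027-97127326, minus strand), 21.9 kb upstream of Ifng (chr10:118418966-118419265, plus strand) and 17.9 kb downstream of Ifng (chr10:118458756-118459055, plus strand). Capitals mark a match, on either strand, to a short word of a transcription factor: the STAT word TTCNNNGAA, the AP-1 word TGANTCA, the RUNX word TGTGGTT, the GATA word AGATAA, the T-box word AGGTGTGA and a longer word for CTCF, given by its name alone. No marked words overlap each other.
Tbx21 -11.8 kb: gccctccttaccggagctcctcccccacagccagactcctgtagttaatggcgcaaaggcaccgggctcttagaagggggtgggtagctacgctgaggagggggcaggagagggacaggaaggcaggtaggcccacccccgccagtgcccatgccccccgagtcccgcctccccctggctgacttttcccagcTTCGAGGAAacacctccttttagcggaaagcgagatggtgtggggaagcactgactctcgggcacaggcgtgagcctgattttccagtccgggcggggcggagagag
Ifng -21.9 kb: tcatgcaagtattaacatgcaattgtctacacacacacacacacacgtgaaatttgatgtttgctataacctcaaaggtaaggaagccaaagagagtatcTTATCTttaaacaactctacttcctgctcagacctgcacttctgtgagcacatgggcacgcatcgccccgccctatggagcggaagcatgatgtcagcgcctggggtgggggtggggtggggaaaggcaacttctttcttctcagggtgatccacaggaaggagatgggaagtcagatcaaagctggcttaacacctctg
Ifng +17.9 kb: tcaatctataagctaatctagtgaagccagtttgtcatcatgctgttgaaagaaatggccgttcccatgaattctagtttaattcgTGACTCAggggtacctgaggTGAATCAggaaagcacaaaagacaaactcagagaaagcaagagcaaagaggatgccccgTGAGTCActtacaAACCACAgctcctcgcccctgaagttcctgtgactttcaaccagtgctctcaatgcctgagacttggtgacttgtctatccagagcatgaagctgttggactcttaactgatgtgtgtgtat

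The next 4 begin with the distal side of the Ifng element 21.9 kb upstream, covered in Th9 and Th2 but not in Th17 libraries (chr10:118418356-118418655, plus strand). The region 27.0 kb upstream of Eomes was called only in Th9 and Th2 (chr9:118451059-118451358, plus strand). That 45.8 kb downstream of Ifng was called only in Th17 (chr10:118486703-118487002, plus strand). Last are the 250 bases before the start of Tbx21 (chr11:97115332-97115581, minus strand). Only the Th9 and Th2 peaks of replicate 3 covered these bases, while those of replicate 1 ended within the gene.
Ifng -21.9 kb, distal side: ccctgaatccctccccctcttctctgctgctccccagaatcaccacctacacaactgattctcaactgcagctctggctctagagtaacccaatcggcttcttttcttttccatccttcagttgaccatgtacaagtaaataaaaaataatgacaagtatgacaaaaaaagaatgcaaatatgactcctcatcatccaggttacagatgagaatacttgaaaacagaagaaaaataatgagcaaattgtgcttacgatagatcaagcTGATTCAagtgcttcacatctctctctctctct
Eomes -27.0 kb: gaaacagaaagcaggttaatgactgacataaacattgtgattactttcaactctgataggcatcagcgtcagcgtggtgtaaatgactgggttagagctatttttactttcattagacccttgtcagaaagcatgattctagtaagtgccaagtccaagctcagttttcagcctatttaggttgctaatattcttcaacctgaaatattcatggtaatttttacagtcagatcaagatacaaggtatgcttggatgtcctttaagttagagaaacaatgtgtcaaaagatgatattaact
Ifng +45.8 kb: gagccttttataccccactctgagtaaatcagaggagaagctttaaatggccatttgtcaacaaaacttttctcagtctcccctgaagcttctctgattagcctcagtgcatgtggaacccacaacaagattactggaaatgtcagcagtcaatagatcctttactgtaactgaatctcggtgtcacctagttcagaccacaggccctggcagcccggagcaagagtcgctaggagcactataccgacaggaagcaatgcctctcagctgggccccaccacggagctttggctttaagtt
Tbx21 promoter: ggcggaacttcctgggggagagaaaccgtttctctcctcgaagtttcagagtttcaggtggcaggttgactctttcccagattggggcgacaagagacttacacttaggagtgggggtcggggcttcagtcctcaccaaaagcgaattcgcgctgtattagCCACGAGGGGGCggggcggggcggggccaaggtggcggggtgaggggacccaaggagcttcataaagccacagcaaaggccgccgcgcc

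The last 3, of 60 bases each on the plus strand, hold the CTCF word at 3 positions around Ifng (chr10:118370623-118370682, chr10:118442062-118442121 and chr10:118507838-118507897).
Ifng -70.5 kb: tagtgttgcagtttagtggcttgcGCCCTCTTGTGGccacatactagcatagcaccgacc
Ifng +1.1 kb: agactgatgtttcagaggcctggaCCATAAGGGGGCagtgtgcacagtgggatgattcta
Ifng +66.8 kb: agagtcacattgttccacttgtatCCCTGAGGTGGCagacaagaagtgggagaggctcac

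Every library called between 45 and 54 of the 87 regions. All 6 libraries called 27 of them (31.0%), against 21.4% of all regions of the genome, with 8 around Tbx21, 6 around Ifng, 6 around Eomes and 7 around Hlx. Windows of the same kind around all 21951 coding genes held a median of 18 regions (interquartile range 12 to 24), of which a median of 6 (3 to 9) were called in all 6 libraries, so each member lay within that range for shared regions. Of the 27 shared regions, 2 lay over the promoter of a member, 9 over the promoter of another gene and 16 over no promoter. The Ifng window accounted for 6 of those 16, Hlx for 6, and Tbx21 and Eomes for 2 each.

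**Figure D1:**
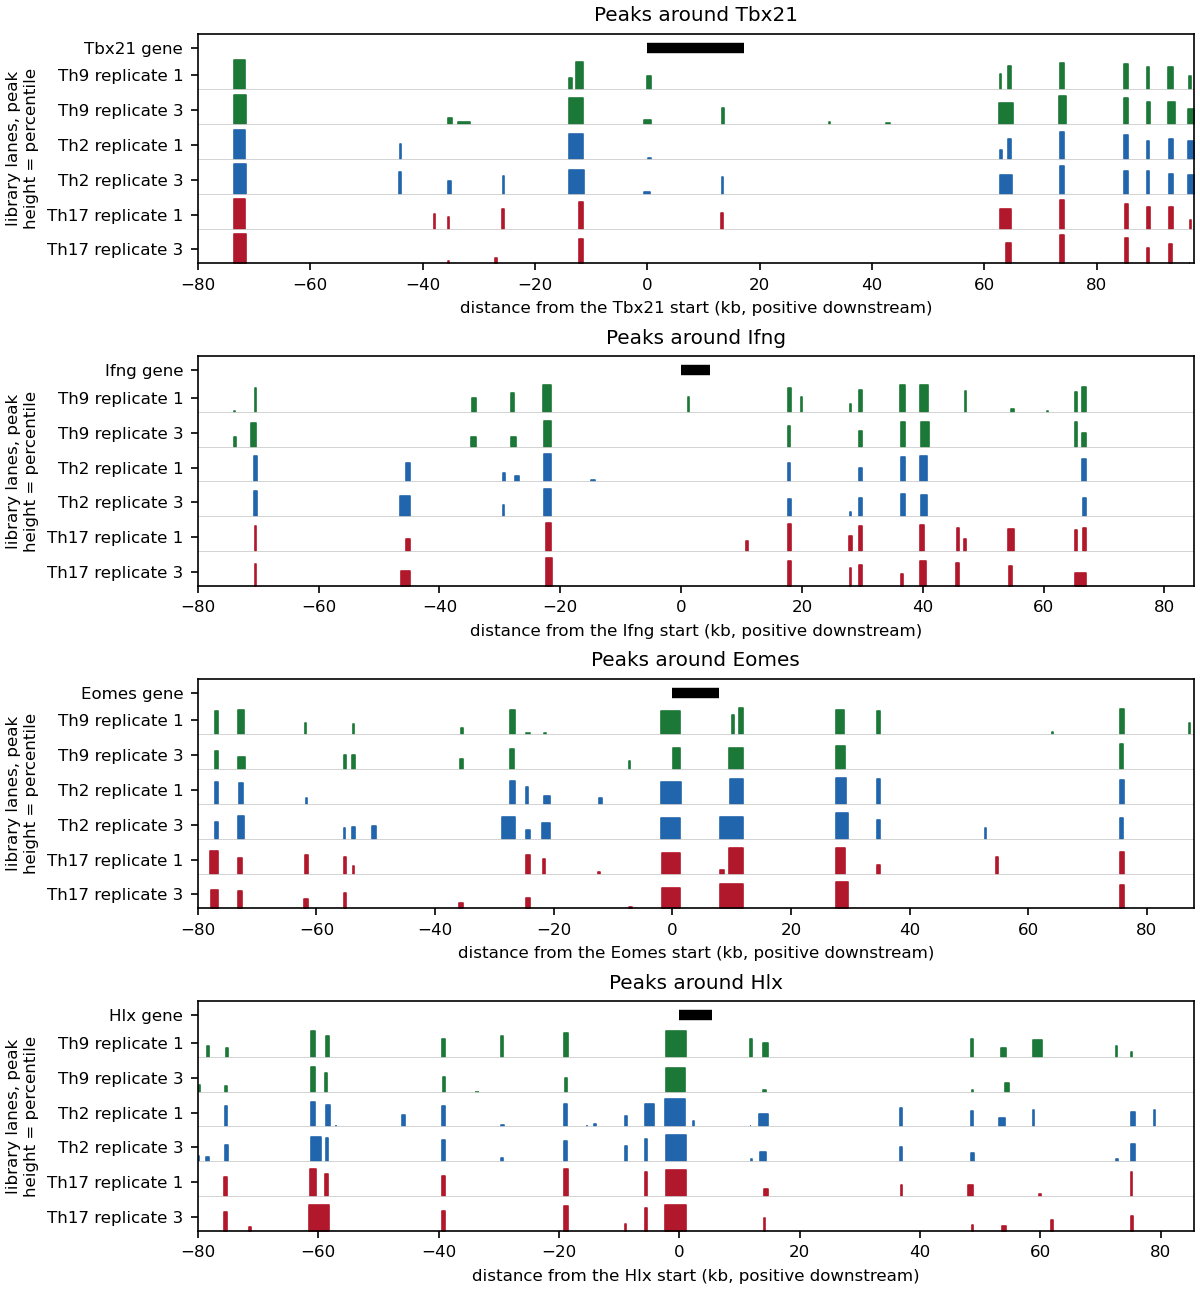
Peaks in the 4 windows by library, plotted by distance in kb from the start of each gene (horizontal axis, positive downstream), with the gene body as a black bar and the height of each peak in its lane as its within-list percentile of fold enrichment from 0 to 100. Ifng has no promoter peak in any lane and 6 regions on its flanks that all 6 lanes share. Hlx has a wide peak over the start in every lane. Eomes has one in every lane but that of Th9 replicate 3, where a narrower peak begins just inside the gene.

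Most other regions followed no subset. Only 1 library called 24 of the 87 regions (27.6%), against 37.2% of all regions of the genome, and their median percentile was 17.6 and their median width 245.5 bp. The percentile is the rank of a peak's fold enrichment within its own list, from 0 to 100, and is used since the folds of different lists are not on one scale. In the 27 shared regions the medians were 73.8 and 1179 bp, close to 74.3 and 1425 bp over all 50493 shared regions of the genome. A further 27 regions were called in 2 to 5 libraries without following whole subsets.

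The promoters of the 4 genes stood in different states. The windows from 1000 bp upstream to 100 bp downstream of the annotated starts of Hlx and Eomes were called in all 6 libraries, as were 58.7% of all coding genes. At Hlx the percentiles were 89.3 and 81.3 in Th9 cells, 93.3 and 89.5 in Th2 cells and 88.2 and 87.4 in Th17 cells (replicate 1 and replicate 3 in that order, here and below), in a region 3469 bp wide. Both Th2 libraries were above the other 4. The Hlx call held at every stricter threshold tried. At Eomes the percentiles were 78.9 and 70.8 in Th9 cells, 75.2 and 68.6 in Th2 cells and 69.3 and 70.0 in Th17 cells, in a region of 3359 bp. The Th2 values overlapped both other subsets, and no library kept the Eomes call at a fold enrichment of at least 4. The Eomes peak of Th9 replicate 3, of 1195 bp, began just inside the gene. When an overlap of 200 bp with the promoter was required, 5 libraries kept the Eomes call.

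The promoter of Tbx21 was called weakly, and only in Th9 and Th2 cells, a pattern found at 0.847% of coding genes. Its percentiles were 43.9 and 15.3 in Th9 and 3.63 and 4.73 in Th2 cells, and neither Th17 library had a peak. Both Th9 libraries were thus above both Th2 libraries, all within the lower part of their lists. The joined region of 1387 bp spanned the start, with the middle of its most shared stretch 0.3 kb downstream. Its peaks were of 705, 1361, 613 and 1215 bp. Those of replicate 1 lay within the gene, and those of replicate 3 reached upstream of the start. When an overlap of 200 bp with the promoter was required, 2 libraries remained. With −log10 q held to 5 or more, no library kept this call.

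The promoter of Ifng was called in no library, as for 28.0% of coding genes. Within the whole Ifng body, 1 peak of 190 bp was found, 1.1 kb downstream of the start, between exons 1 and 2 of Ifng and within an exon of the overlapping transcript Gm49751, in Th9 replicate 1 alone, at percentile 49.3. The lists hold no read counts, so a missing call means only that no peak passed the authors' cutoff in that library. The lowest fold listed ran from 1.71 to 2.11 over the libraries, and the lowest −log10 q from 1.02 to 1.23.

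By contrast, 6 of the 21 regions of the Ifng window were called in all 6 libraries (28.6%, against 21.4% of all regions). The element 21.9 kb upstream, at chr10:118418209-118419591 between genes, had percentiles of 90.7 and 87.0 in Th9 cells, 94.3 and 90.7 in Th2 cells and 94.0 and 94.4 in Th17 cells. Subset means were 88.8 ± 2.7, 92.5 ± 2.5 and 94.2 ± 0.3 (SD, n = 2 each). Both Th17 values were above both Th9 values, and the Th2 values overlapped each. This was the only Ifng region that all 6 libraries kept at a fold of at least 4 and among the top 20000 peaks of each list. It matches a conserved element known for T-bet binding and for its need in Ifng expression by Th1 cells. Its middle 300 bases held 1 GATA word and no T-box word.

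The covered length at this element set Th17 cells apart more clearly than the percentile did, while Th9 and Th2 lengths overlapped. Peaks covered 1301 and 1287 bp in Th9, 1254 and 1298 bp in Th2, and 862 and 910 bp in Th17 cells. Both Th17 libraries were shorter than all others. A stretch of 351 bp on the side away from the gene, at chr10:118418331-118418681, was covered by the peaks of all 4 Th9 and Th2 libraries but of no Th17 library. The sequence shown from it above held 1 AP-1 word.

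The remaining elements known around Ifng were tested by position, within 1 kb. Of the 6 listed, at 54, 34, 22 and 6 kb upstream and 18 and 29 kb downstream, 3 were called in all 6 libraries (22 kb upstream, 18 and 29 kb downstream), 1 in both Th9 libraries alone (34 kb upstream), and those 54 and 6 kb upstream in none. At 17.9 kb downstream the percentiles were 80.1 and 68.9 in Th9 cells, 63.3 and 56.8 in Th2 cells and 90.5 and 82.9 in Th17 cells. Here the subsets did not overlap: Th17 was above Th9, and Th9 above Th2. Both Th17 values lay above the other 4 in 7.71% of all shared regions, and both Th2 values below the other 4 in 7.32%. The 300 bases at its middle held 3 AP-1 words and 1 RUNX word. No other region of the 87 held 3 AP-1 words there. At 29.7 kb downstream the percentiles were 74.0 and 52.1 in Th9 cells, 46.6 and 62.6 in Th2 cells and 84.6 and 71.4 in Th17 cells. The Th17 and Th9 values overlapped. A smaller region next to it, 28.0 kb downstream, was called in both Th17 libraries at 51.3 and 58.8, in Th9 replicate 1 at 27.6 and in Th2 replicate 3 at 13.6.

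Further downstream, 40.0 kb from the start, a shared region of 1464 bp had percentiles of 91.0 and 83.6 in Th9 cells, 85.2 and 72.7 in Th2 cells and 89.6 and 83.6 in Th17 cells. Its neighbour 36.5 kb downstream was called at 92.2 and 83.2 in Th9 and 82.9 and 76.4 in Th2 cells, but only in Th17 replicate 3, at 40.7, of the Th17 pair. The 2 regions therefore lay close together with unlike Th17 calls. In the other direction, the region 45.8 kb downstream was called only in Th17 cells, at 77.9 and 76.3 over 258 and 475 bp, and the region 54.7 kb downstream at 75.0 and 67.4 in Th17 and at 8.4 in Th9 replicate 1. No Th2 library called either of them.

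Sites bound by CTCF are known near 70 kb upstream, 1 kb downstream and 66 kb downstream of the Ifng start, and these positions were chosen after the values had been seen. The outer pair coincided with shared regions. The upstream one, 70.5 kb from the start, had percentiles of 81.3 and 81.0 in Th9 cells, 86.0 and 86.5 in Th2 cells and 85.2 and 75.0 in Th17 cells. The downstream one, 66.8 kb from the start in an intron of Ifngas1, had, for the peak over the CTCF word itself, 84.1 and 47.0 in Th9 cells, 77.2 and 63.0 in Th2 cells and 76.3 and 43.4 in Th17 cells. The higher value of 83.4 for Th9 replicate 3 in this joined region came from a separate peak beside it. The position inside the gene is that of the single peak of Th9 replicate 1, and no peak of any library covered the word there, which ended just before it. All 3 held the CTCF word in the 300 bases at their middle, in the orientation shown at 1.1 and 66.8 kb downstream and on the opposite strand at 70.5 kb upstream. The word occurred in 11 of the 87 regions (12.6%), these 3 among them, and in 4 of the 27 shared regions. Over the genome it occurred in 7.54% of all regions and in 13.4% of those called in all 6 libraries. It was chosen after the values had been seen.

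**Figure D2:**
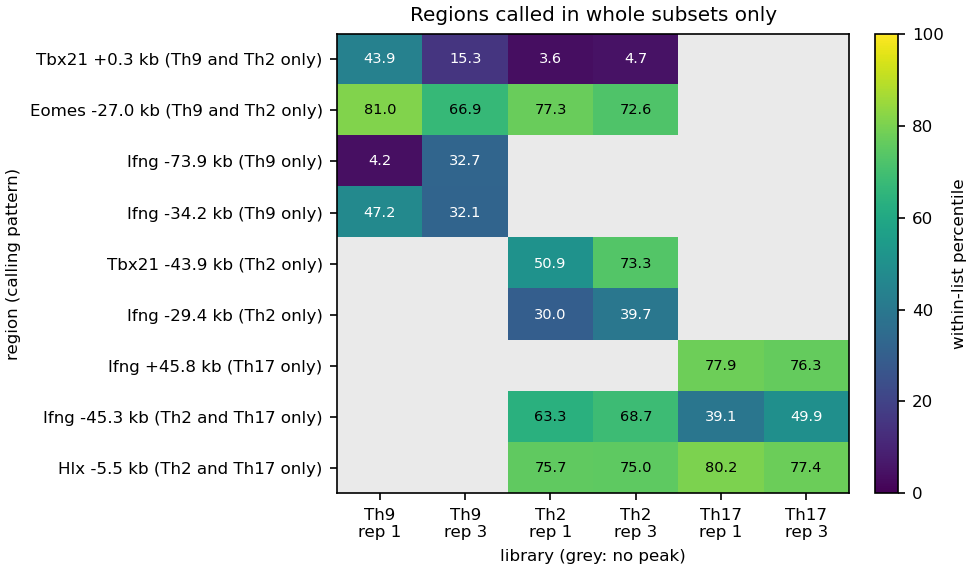
Within-list percentile (colour and printed value) of the 9 regions called in every library of 1 or 2 subsets and in no other library, with libraries on the horizontal axis and regions on the vertical axis, and grey where a library had no peak. Eomes -27.0 kb, Ifng +45.8 kb and Hlx -5.5 kb were above percentile 66 in each library that called them, whereas the Tbx21 promoter fell to 3.6.

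Regions that followed whole subsets numbered 9 of 87. Both Th9 and both Th2 libraries, and neither Th17 library, called 2 (2.30%, against 2.0% of all regions). The Th9 libraries alone called 2 (1.31% of all regions), the Th2 libraries alone 2 (2.87%), the Th17 libraries alone 1 (1.70%), Th2 and Th17 together 2 (1.55%), and Th9 and Th17 together 0 (0.296%). These shares lay near those of the genome. Around Il4, the gene of the main Th2 cytokine, 7 of 21 regions were called in Th9 and Th2 only, and around Il17a, the gene of the main Th17 cytokine, 4 of 30 were called in Th17 only.

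Besides the Tbx21 promoter, the Th9 and Th2 pattern was found 27.0 kb upstream of Eomes, at chr9:118449562-118451720 between genes. The percentiles there were 81.0 and 66.9 in Th9 and 77.3 and 72.6 in Th2 cells, over 854, 726, 856 and 2159 bp. The Th9 and Th2 values overlapped. With −log10 q held to 5 or more these 4 calls remained, and none remained at a fold of at least 4. Its middle 300 bases held none of the words searched.

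The Th9 libraries alone called the Ifng region 34.2 kb upstream, at 47.2 and 32.1 over 669 and 930 bp, and another 73.9 kb upstream at 4.2 and 32.7. The Th2 libraries alone called the Ifng region 29.4 kb upstream, at 30.0 and 39.7, and the Tbx21 region 43.9 kb upstream, at 50.9 and 73.3. Except for the Tbx21 region in Th2 replicate 3, none of these calls remained at a −log10 q of 5 or more. Th2 and Th17 cells shared the Ifng region 45.3 kb upstream, at 63.3 and 68.7 in Th2 and 39.1 and 49.9 in Th17 cells. They also shared the Hlx region 5.5 kb upstream, over the start of the gene Gm34342, at 75.7 and 75.0 in Th2 and 80.2 and 77.4 in Th17 cells. With −log10 q held to 5 or more, each of these 4 Hlx calls remained.

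The strongest region of the Tbx21 window over no promoter lay 11.8 kb upstream, at chr11:97126665-97129350 between genes. Its percentiles were 91.3 and 90.2 in Th9 cells, 85.8 and 81.5 in Th2 cells and 91.4 and 83.4 in Th17 cells. Both Th9 values were above both Th2 values, and the Th17 values overlapped each. It thus ranked high in cells where the Tbx21 promoter was called weakly or not at all. At a fold of at least 4 the call was lost in Th17 replicate 3, and among the top 20000 peaks it was lost in both Th2 libraries. An enhancer that responds to STAT4 is known upstream of Tbx21, and the middle 300 bases of this region held 1 STAT word, from base 194 of the sequence shown. STAT words were found in 9 of the 87 regions (10.3%), against 8.37% of all regions.

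Here too the covered length separated Th17 cells. Peaks covered 1868 bp (in 2 peaks) and 2626 bp in Th9, 2504 and 2603 bp in Th2, and 820 and 664 bp in Th17 cells. Both Th17 libraries had the shortest covered length, with no overlap. All 6 libraries covered a common 664 bp, and 982 bp were covered in every Th9 and Th2 library but in no Th17 library, the longest run of them, 520 bp, next to the Th17 peaks on the side away from the gene. Among the 27 shared regions of the 4 genes, both Th17 libraries were shorter than the other 4 in 7. The share over all shared regions of the genome was 13.2%. Both Th17 libraries were longer than the other 4 in 2 (7.80% over the genome), 18.8 kb upstream of Hlx and 76.9 kb upstream of Eomes. Both Th9 libraries were shorter than the other 4 in 4 (19.3%), and both Th2 libraries in 1 (2.56%). The 7 with Th17 shorter were 4 in the Tbx21 window (11.8 kb upstream and 85.2, 93.1 and 96.6 kb downstream), 2 in the Ifng window (21.9 kb upstream and 40.0 kb downstream) and 1 in the Eomes window (72.8 kb upstream). Those 85.2 and 96.6 kb downstream of Tbx21 lay over the promoters of Scrn2 and Sp6, and that 72.8 kb upstream of Eomes over that of Platr11. The region 93.1 kb downstream of Tbx21 lay within Sp6, with a small gap: 669 and 598 bp in Th17 cells against 683 bp in Th2 replicate 1. In total the lists covered 101.8 and 80.7 Mb in Th9, 117.5 and 108.2 Mb in Th2 and 96.0 and 91.5 Mb in Th17 cells. Both Th17 totals were below those of both Th2 libraries and of Th9 replicate 1, and above that of Th9 replicate 3. Whether list length or depth bears on the covered lengths was not tested.

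**Figure D3:**
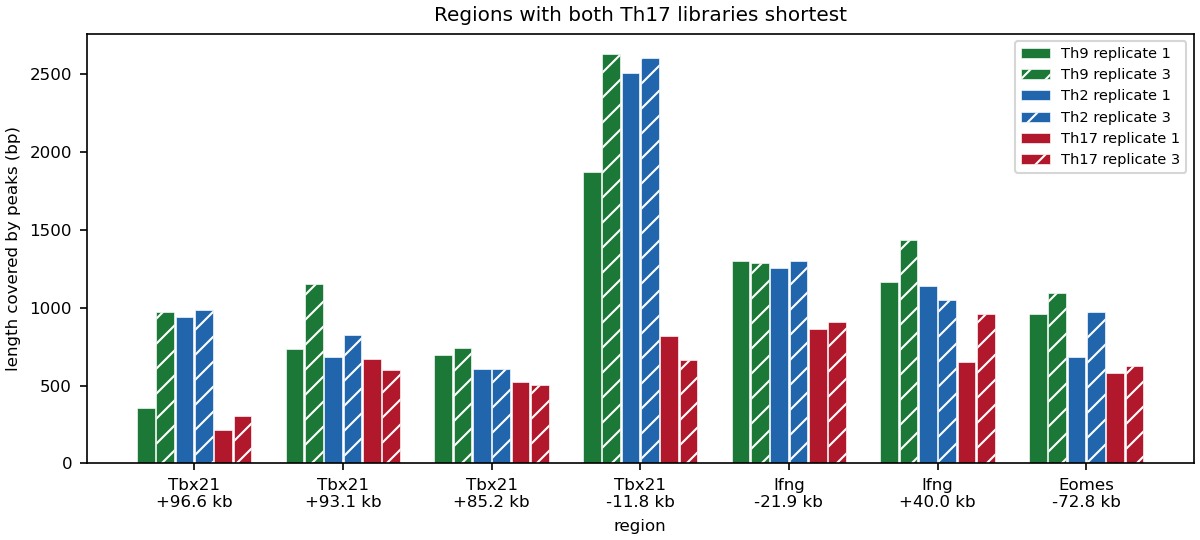
Length covered by peaks in bp (vertical axis, from 0) in each library, for the 7 shared regions in which both Th17 libraries were shorter than the other 4 (horizontal axis), with replicate 3 hatched. The gap was widest at Tbx21 -11.8 kb, where Th17 peaks covered 820 and 664 bp and no other library less than 1868 bp.

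The other shared regions of the Tbx21 window were mainly those of its neighbours. Of its 8, 6 lay over other promoters, among them that of Kpnb1, the importin beta gene, 72.5 kb upstream, with percentiles from 97.9 to 99.8. The remaining one lay 93.1 kb downstream, from 64.8 to 76.8. Within the body of Tbx21, a region 13.4 kb downstream was called in 3 libraries, 1 of each subset, at 56.3, 58.0 and 53.8.

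Around Eomes, 3 of the 6 shared regions lay over promoters of other genes: Platr11 72.8 kb upstream, Gm33460 11.5 kb downstream and Golga4 28.3 kb downstream. The Gm33460 region, just past the 3′ end of Eomes, reached 88.8 and 71.4 in Th9 cells, 84.4 and 73.8 in Th2 cells and 85.0 and 82.5 in Th17 cells. The subsets overlapped there. Among regions over no promoter, that in an intron of Golga4, 75.8 kb downstream, was the highest, with 86.4 and 86.6 in Th9 cells, 80.3 and 70.8 in Th2 cells and 72.4 and 78.7 in Th17 cells. Both Th9 values were above the rest. The remaining one, 76.9 kb upstream, ran from 56.2 to 77.6. Peaks there covered 1388 and 1245 bp in Th17 cells, and from 400 to 493 bp in the Th9 and Th2 libraries.

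Around Hlx, 6 of the 7 shared regions lay over no promoter. The highest was 60.9 kb upstream, with 87.0 and 82.1 in Th9 cells, 83.5 and 81.3 in Th2 cells and 92.0 and 88.8 in Th17 cells. At 18.8 kb upstream the values were 79.7 and 44.8 in Th9 cells, 77.2 and 67.6 in Th2 cells and 92.6 and 83.6 in Th17 cells. In both regions the Th17 libraries were above all others. At 75.3 kb upstream the order was different, with 30.3 and 18.7 in Th9 cells, 68.2 and 56.6 in Th2 cells and 65.1 and 63.5 in Th17 cells, so that both Th9 libraries were lowest. The regions 14.2 and 48.7 kb downstream were the weakest of the shared ones around Hlx and fell to 7.3 and 5.6 in Th9 replicate 3.

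**Figure D4:**
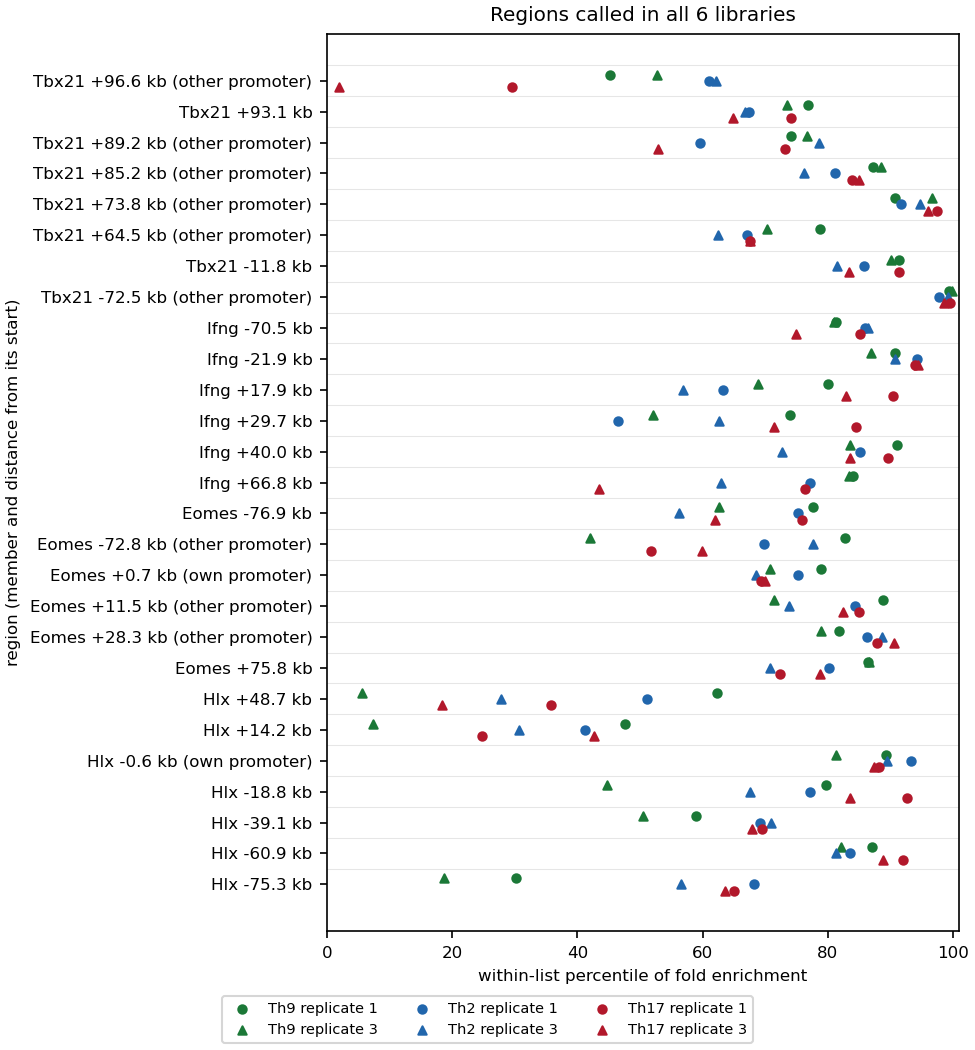
Within-list percentile of fold enrichment (horizontal axis, 0 to 100) of the 27 regions called in all 6 libraries (vertical axis, by gene and distance), with 1 point per library, circles for replicate 1 and triangles for replicate 3. Ifng -21.9 kb and Tbx21 -11.8 kb lie above 80 in every library, whereas Hlx +14.2 kb stays below 50.

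Counted over the 27 shared regions, both Th9 percentiles lay above the other 4 in 4 regions (8.94% of all shared regions of the genome), 1 of them the Ifng region 66.8 kb downstream where Th9 replicate 3 ranked by the separate peak, and below in 3 (9.0%). Both Th2 percentiles lay above in 3 (11.7%) and below in 3, and both Th17 percentiles above in 3 and below in 1 (10.8%). With 2 libraries of each subset, no single region could reach 0.05 in an exact permutation test, and none was tested singly. The median difference of Th17 from the mean of the others was 1.04 percentiles in the member regions and 0.0311 in all shared regions.

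Over all 4 windows, pairs of libraries overlapped more within a subset than between subsets, by a margin that the design could not carry past 0.05. The base-pair Jaccard index, the shared covered length divided by the total covered length, was 0.503 for the Th9 pair, 0.612 for the Th2 pair and 0.638 for the Th17 pair. Its mean was 0.584 ± 0.0716 (SD, n = 3 pairs) within subsets and 0.499 ± 0.0511 (n = 12 pairs) between them, a difference of 0.0855 (one-sided exact permutation test over 15 arrangements, p = 0.0667, the smallest possible). Of the 12 pairs between subsets, 6 were above the lowest pair within a subset, the Th9 pair. Peaks covered 38.5 and 41.9 kb of the windows in Th9, 43.7 and 48.9 kb in Th2 and 37.1 and 40.0 kb in Th17 cells. As a share of each library's own covered length this was 0.0378 and 0.0520%, 0.0372 and 0.0452%, and 0.0387 and 0.0438%. Subset explained a share of 0.113 of the variance of these values (exact permutation test, p = 0.867).

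Of 27 genes listed for the wider Th1 pathway, 22 had a promoter called in all 6 libraries and 0 in none, beside 58.7% and 28.0% of all coding genes, and the list was not tested against them. All 7 signal receptors were called throughout, among them Il12rb2, the inducible chain of the IL-12 receptor, at percentiles from 84.3 to 91.9, and Ifngr1, the ligand-binding chain of the interferon-gamma receptor, from 98.6 to 99.8. Of the signal transducers, Stat4, which carries the IL-12 signal, was the exception, at 79.2 in Th9 replicate 1, 76.8 and 64.2 in Th2 and 62.4 and 65.9 in Th17 cells, with no peak in Th9 replicate 3.

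Of 7 transcription factors, 6 were called throughout, including Runx3, a partner of T-bet, from 87.0 to 92.0. Twist1, a repressor active in Th1 cells, was called in 4 libraries. Of 9 effector and homing genes, 6 were called in all libraries. Gzmb, the gene of granzyme B, ran from 53.7 to 74.3 and Prf1, the gene of perforin, from 9.86 to 78.0. Cxcr3, a chemokine receptor that T-bet activates, was called in 4 libraries, Klrg1 in 3 and Nkg7 in 2.

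**Figure D5:**
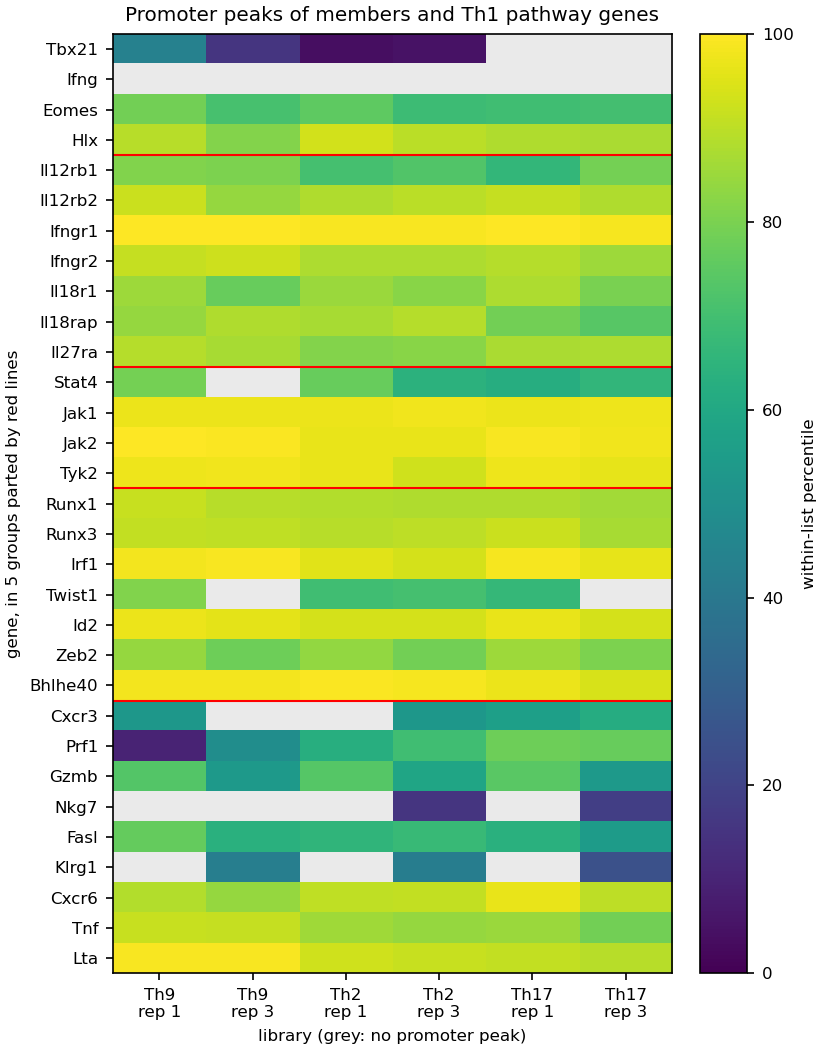
Within-list percentile (colour) of the highest promoter peak of the 4 members and the 27 pathway genes (vertical axis; red lines part members, receptors, transducers, transcription factors, and effector and homing genes) in each library (horizontal axis), with grey for no peak. Ifng is grey throughout and Tbx21 is grey in Th17, whereas 22 of 27 pathway genes are coloured in all 6 libraries.

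Not every subset marker was particular to its subset. The T cell gene Cd3e was called in all libraries and Cd4 in 4. The Il9 promoter was called at 88.6 and 90.7 in Th9 cells, at 37.1 and 44.4 in Th2 cells and in no Th17 library, and Il17f and Il23r were called in Th17 only, while Il17a was also called in Th2 replicate 3, at 36.1. Of the Th2 markers, Il13 was called in Th2 only, at 51.5 and 86.8. Il4 was called in Th9 cells at 89.5 and 92.3 and in Th2 cells at 87.8 and 88.3. Gata3 was called in all 6 libraries, with 95.6 and 93.8 in Th9, above 87.7 to 90.0 in the others. Of 9 promoters that mark CD8 T cells, B cells, myeloid cells and NK cells, 6 were called in no library (Cd8a, Ms4a1, Cd79a, Lyz2, Csf1r and Ncr1), Cd8b1 in all, Adgre1, a macrophage gene, in the 4 Th9 and Th2 libraries at 8.96 to 47.8, the calling pattern of the Tbx21 promoter and of the Eomes region 27.0 kb upstream, and Klrb1c in 1. A part of such cells in the peaks described here was not tested.

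Among coding genes on other chromosomes, the 3 promoters with percentiles closest to those of Hlx over the 6 libraries were Phf11a, Eps8 and Hcls1, at Euclidean distances of 2.001, 3.23 and 3.35 percentiles. For Eomes they were Sox7, Tbx15 and BB014433, at 4.17, 4.28 and 4.72. For Tbx21 the closest were Bmp4, Rab7b and Abcc8, at 6.45, 9.11 and 9.54, and all 3 were called in both Th9 libraries but in neither Th2 library. Ifng, with no call, could not be ranked.

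The T-box word occurred in 0 of the 87 regions, against 1.46% of all regions, a share at which few matches would fall in so small a set. AP-1 words were found in 17 regions (19.5%, against 12.8%), RUNX words in 6 (6.90%, against 7.39%) and GATA words in 5 (5.75%, against 11.3%). These are counts of letters in a window of 300 bases and do not show that a factor was bound.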

How the data were processed

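ATAC-seq peak lists of 6 libraries were analysed, 2 each of Th9, Th2 and Th17 cells. Per the methods and the submitters' processing notes, the authors trimmed reads with Trim Galore 0.4.3, aligned them to mm10 with bowtie2, removed duplicates with Picard, left out mitochondrial reads and reads of low mapping quality, and called peaks in each library alone with MACS2 2.1.0 in paired-fragment broad mode without local background or input. In this mode the background is constant over the genome. The cutoff was not given in the sources used here. The deposited lists give each peak's fold enrichment (a linear ratio), the −log10 of its p-value and q-value, and a display score, which was not used. They hold no read counts, so the depth is unknown and no interval from counts is given. The lists held 100317 to 142213 peaks.

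Fold was ranked within each list to a percentile. Where a library had several peaks in a region, the highest percentile and the summed length were used. Overlapping or touching peaks of the 6 lists were merged into regions, and a call needed 1 bp of overlap. Genes came from the basic set of GENCODE M21, and 0 peaks lay past a chromosome end. Sequences were read from the RefSeq copy of GRCm38.p6 (shown as mm10), and words were counted in the 300 bases around the middle of the stretch called by most libraries. The members, gene lists and words were chosen with earlier results of these data known. Regions named in full were those called in all libraries, at the members' promoters or bodies, at listed Ifng positions, or highest in a window, and regions in whole-subset patterns were added. The pathway, marker and compared genes were lists, of which some genes are not reported here and were left out of the counts, and the most similar genes were the 3 with the smallest distance. Similarity (one-sided) and the share of variance in covered length explained by subset were tested by exact permutation over the 15 arrangements of 6 libraries into pairs. The p-values give the share of these arrangements with a value at least as high as that observed, and they describe only these libraries. Python 3.11.15, numpy 2.4.6 and pandas 2.3.3 were used. On simulated lists of 20000 regions, 200 of 200 planted calling patterns were recovered. The simulated regions lay too far apart to merge, so this checked the code only and not the joining of neighbouring peaks. The alternatives were thresholds of 5 on −log10 q and of 4 on fold, the top 20000 peaks by fold, lists of equal length, 50% of a region covered, windows of 50 and 120 kb, wider promoters, 200 bp of promoter overlap, regions without other promoters, each library left out, and a replicate block. A fold threshold of 2.2 was tried later, chosen after seeing the data.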

Additional observations from a re-analysis of the deposited data

How the results depend on the processing

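The number of regions called in all 6 libraries, 27, fell to 16 at a −log10 q of at least 5, to 4 at a fold of at least 4, to 4 among the top 20000 peaks and to 12 when 50% of a region had to be covered, and was 14 in windows of 50 kb and 41 in windows of 120 kb. The number called in Th9 and Th2 only, 2, became 0 at a fold of at least 4, 0 among the top 20000 peaks, 1 with lists of equal length (the Tbx21 promoter was then called in Th9 alone) and 5 in windows of 120 kb. Stricter thresholds keep fewer peaks by construction. With each library left out in turn these counts ran from 27 to 29 and from 2 to 4, the 4 being without Th9 replicate 3. Over 15 alternatives the excess of the Jaccard index within subsets stayed positive, from 0.0484 to 0.314 (exact permutation p from 0.0667 to 0.2), and the share of variance explained by subset ran from 0.0988 to 0.971 (p from 0.0667 to 0.933), highest among the top 20000 peaks. A replicate block gave an excess of 0.0972 (p = 0.167 in an exact permutation test, the smallest possible) and a share of 0.464 (p = 0.667). Percentile deviations of same-numbered libraries correlated at 0.168, 0.0313 and -0.00984 over 50493 regions. Such correlations cannot show whether same-numbered libraries shared a source. The numbers were not taken to pair the samples in the main tests.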

Other observations

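The windows of 80 kb end close to further peaks. A region called in all 6 libraries, with a highest percentile of 98.4, lay 1.5 kb past the upstream end of the Hlx window, and another, with 89.9, lay just past the upstream end of the Eomes window. A region called in 2 libraries, with a highest percentile of 68.0, lay 1.0 kb past the downstream end of the Ifng window.

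Around Gata3, the factor that directs Th2 cells, 6 of 15 regions were called in all 6 libraries, beside 8 of 18 around Tbx21. Regions called in all Th2 libraries and no other numbered 3 around Gata3 and 1 around Tbx21. Neither difference was tested.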
